A study of Mus musculus with 5 samples.

Results

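The Nr4a, Egr and Nfat genes that respond to the T cell receptor (TCR) were examined for H3K27ac in intestinal regulatory T (Treg) cells. H3K27ac is a histone H3 acetylation found at promoters and enhancers in use. The 8 genes were Nr4a1, Nr4a2, Nr4a3, Egr1, Egr2, Egr3, Nfatc1 and Nfatc2, out of 21851 protein-coding genes of the GENCODE M21 annotation. Every peak of the deposited table that overlapped the span of such a gene, or the 20 kb on either side of it, was counted for that gene. This window took in 157 of the 124158 peaks of the series and 0.289% to 0.344% of all counts of a library, and no peak belonged to 2 of the 8 genes.

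CUT&Tag uses an antibody against the mark to bring a transposase to the chromatin, where it inserts sequencing adapters. The source was C57BL/6 mice of 2 weeks of age, with 60000 sorted Treg cells (CD3+, CD4+ and positive for Foxp3-YFP) in a library, pooled from 3 to 5 littermates. The study used both sexes unless it said otherwise, and the sex of the mice in each pool is not stated. The Ctrl group was Foxp3Cre-YFP Setd2 f/+, with 1 floxed allele of the H3K36 methyltransferase gene Setd2, and the KO group was Foxp3Cre-YFP Setd2 f/f, with both alleles floxed. Both groups thus carried a Cre recombinase under the control of Foxp3, which acts in Treg cells, and the Ctrl cells had themselves lost 1 Setd2 allele. Each group held 2 libraries, and a further IgG library had no column among the counts and was not analysed here. Total counts were 2395002 and 3630447 in Ctrl 1 and Ctrl 2, and 3007444 and 4712473 in KO 1 and KO 2. The label of the cells was checked against fixed markers, using peaks whose nearest start site was that of the marker. All 8 Treg and CD4 T cell markers carried signal, with a sum of 2940 and 3269 CPM in Ctrl 1 and Ctrl 2, and 3522 and 4112 CPM in KO 1 and KO 2. CPM are counts scaled to the size of the library. The natural killer cell gene Ncr1, the B cell gene Ms4a1, the myeloid gene Lyz2, the epithelial gene Krt20, and Col3a1 and Kdr of stroma and endothelium had 0 counts in such peaks in all 4 libraries. Reads outside peaks were not counted, so a gene with no called peak also reads 0, and such a 0 is not a measured absence. Other genes of these lists carried signal. Klrb1c of NK cells had 280 and 161 CPM in Ctrl, and 305 and 175 CPM in KO. Kit had 103 and 87.5 CPM in Ctrl, and 116 and 93.2 CPM in KO. In their highest library, Cd79a of B cells reached 73.6 CPM, Csf1r of myeloid cells 74.1 CPM and Cdh1 of epithelium 47.7 CPM. The summed level of the markers of CD8 T, NK and innate lymphoid cells was 404 and 261 CPM in Ctrl, and 453 and 288 CPM in KO, and that of stroma and endothelium was 524 and 778 CPM in Ctrl, and 641 and 977 CPM in KO. Pecam1 alone, of the 6 genes of the latter list, gave 513 and 766 CPM in Ctrl, and 633 and 973 CPM in KO, and Col1a1, Pdgfra and Cdh5 were each at 5.65 CPM or less in every library. The B cell, myeloid and epithelial lists lay between 68.5 and 178 CPM in each library, and the part of these cells in the results was not tested. The Setd2 window itself had 129.8 and 179 CPM in Ctrl against 101 and 138 CPM in KO, a log2 fold change of -0.37 ± 0.27 (SE, adjusted p = 1.0, edgeR), and since the mark is not a readout of the deleted exons this does not measure the deletion.

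All 3 families lie downstream of the TCR. Calcium entry activates the phosphatase calcineurin, which dephosphorylates the transcription factors NFATc1 and NFATc2 so that they enter the nucleus, while Ras and ERK signalling switches on the immediate early genes of the Egr family through SRF and its partners. The Nr4a genes encode nuclear receptors that rise within hours of TCR engagement and are widely used as a record of it, and they contribute to the differentiation and maintenance of Treg cells. Egr2 and Egr3 restrain T cell activation, and NFATc1 and NFATc2 cooperate with Foxp3 and with AP-1 at target genes.

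The promoters that lay under strong H3K27ac peaks are shown first, because promoters can carry elements through which such signals reach a gene. They are the 250 bases before and the 50 bases after a RefSeq start site on GRCm38.p6, read 5′ to 3′ on the strand of the gene. RefSeq promoter entries matched 5 of the 8 genes in 10 entries. Both strands were searched for the CRE (TGACGTCA), AP-1 (TGANTCA), NFAT core (GGAAA), Egr (GCGTGGGCG) and NBRE (AAAGGTCA) motifs and for the CArG box, the site of SRF. The core of the CRE (TGACG), which lies within the full CRE motif, was added after the sequences had been read. Capitals mark the matches.
Nr4a1, chr15:101266596-101266895, + strand: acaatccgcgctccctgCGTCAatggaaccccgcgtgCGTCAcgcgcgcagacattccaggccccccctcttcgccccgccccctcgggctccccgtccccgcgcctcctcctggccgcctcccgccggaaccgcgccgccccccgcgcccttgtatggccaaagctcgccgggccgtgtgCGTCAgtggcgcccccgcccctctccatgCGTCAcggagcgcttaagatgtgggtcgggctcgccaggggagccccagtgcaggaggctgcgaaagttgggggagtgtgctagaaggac
Nr4a3, chr4:48045055-48045354, + strand: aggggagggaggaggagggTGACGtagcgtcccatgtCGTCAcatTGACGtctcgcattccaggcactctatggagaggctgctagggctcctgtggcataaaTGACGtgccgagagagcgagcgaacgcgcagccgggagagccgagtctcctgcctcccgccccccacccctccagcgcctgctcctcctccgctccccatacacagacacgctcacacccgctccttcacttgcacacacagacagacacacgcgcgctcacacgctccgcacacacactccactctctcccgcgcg
Egr2, chr10:67537620-67537919, + strand: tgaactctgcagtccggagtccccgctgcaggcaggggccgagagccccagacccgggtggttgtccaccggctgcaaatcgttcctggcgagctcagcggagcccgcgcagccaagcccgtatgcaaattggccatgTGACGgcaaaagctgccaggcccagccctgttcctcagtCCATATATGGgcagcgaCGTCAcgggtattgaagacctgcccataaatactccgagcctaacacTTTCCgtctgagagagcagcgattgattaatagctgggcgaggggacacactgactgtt
Nfatc2, chr2:168590316-168590615, - strand: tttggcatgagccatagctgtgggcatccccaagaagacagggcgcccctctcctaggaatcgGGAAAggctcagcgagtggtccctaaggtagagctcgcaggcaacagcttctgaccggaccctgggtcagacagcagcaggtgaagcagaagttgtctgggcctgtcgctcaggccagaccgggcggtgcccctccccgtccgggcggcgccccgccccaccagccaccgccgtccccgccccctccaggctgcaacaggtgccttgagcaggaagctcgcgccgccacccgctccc

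The Nr4a1 promoter held 4 matches to the CRE core, and so did that of Nr4a3. Neither held any other motif of the list in this window. The promoter of Nr4a2 at the 5′ end of its span, not shown, also had 4 matches to the CRE core, with 1 to the NFAT core. The Egr2 promoter shown had a CArG box 73 bases before the start, 2 CRE cores and 1 NFAT core, and the Nfatc2 promoter shown had 1 NFAT core. Other entries of these genes differed. The Nfatc2 entry at the 5′ end of the span had 3 NFAT cores. The Egr2 entry chr10:67537316-67537615, under the same peak, had 3 NFAT cores, a CArG box and no CRE core. The Egr2 entry chr10:67535249-67535548 had none of the motifs, and the remaining Egr2 entries overlapped the one shown and held the same motifs. Of the 32851 RefSeq promoters of this length, 20.8% held the CRE core, 61.3% the NFAT core, 1.63% a CArG box, 1.79% the full CRE, 7.81% the AP-1 motif, 1.51% the NBRE and 0.612% the Egr motif. A match describes these letters and does not show that a factor was bound.

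The amount of H3K27ac differed widely among the 8 genes. Per kb of window, the mean over the 4 libraries was highest for Nfatc1, with 9.48 CPM per kb, followed by Nr4a1 with 7.504, Nfatc2 with 5.47, Egr3 with 4.51, Egr1 with 3.97, Egr2 with 2.42, Nr4a3 with 1.77 and Nr4a2 with 1.04. Over all coding genes with a peak in the window, Nfatc1 stood at percentile 99.4 and Nr4a1 at 98.6, against 57.1 for Nr4a2. The ranges over the libraries did not overlap between Nr4a1 (6.45 to 8.82) and Nfatc2 (4.94 to 6.36), while Egr3 (4.05 to 5.13) overlapped with both Nfatc2 and Egr1 (3.67 to 4.62). Egr2 (1.58 to 3.06) overlapped with Nr4a3 (1.49 to 2.06), and Nr4a3 with Nr4a2 (0.562 to 1.66). Nfatc1 (7.74 to 11.1) overlapped with Nr4a1.

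**Figure D1:**
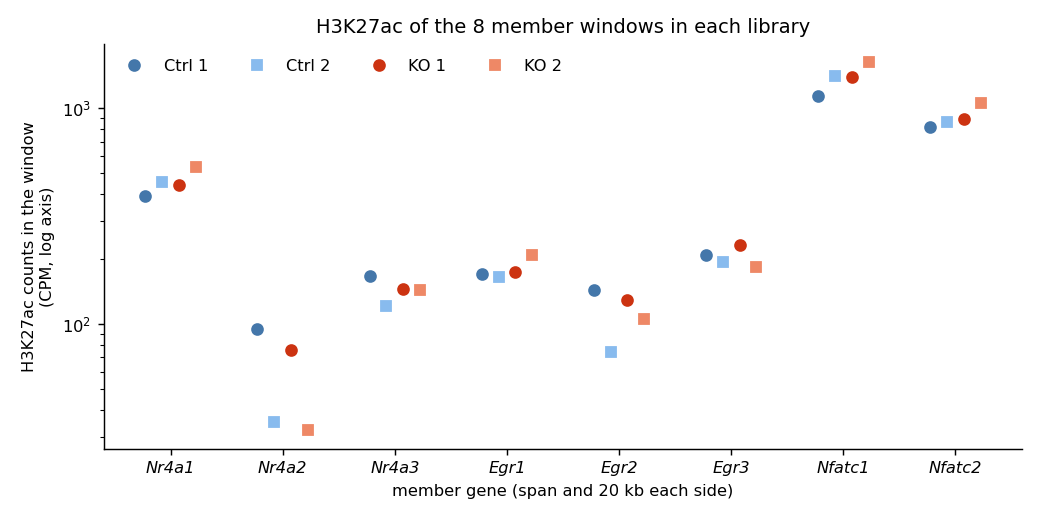
Each point is the H3K27ac of a member window in 1 library, in CPM on a log axis, with Ctrl in blue and KO in red, and circles for replicate 1 and squares for replicate 2. Nfatc1 and Nfatc2 lie at the top, between 817 and 1628 CPM, and Nr4a2 at the bottom, between 32.1 and 95.01 CPM, with both replicate 1 libraries above both replicate 2 libraries.

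The comparison of KO with Ctrl asked whether loss of the second Setd2 allele changed H3K27ac at these genes. All 8 windows passed the filter of at least 10 counts in at least 2 libraries. None of the 8 was called at an adjusted p under 0.05 by the quasi-likelihood test of edgeR, none had an unadjusted p under 0.05, and DESeq2 gave 0 by either measure. The adjusted p of edgeR was 1.0 for each of the 8 windows, and the smallest of a member peak was 0.998. Over all 16027 windows tested, 0% were called by edgeR and 2.55% had an unadjusted p under 0.05, 54 of them higher and 355 lower in KO, and DESeq2 called 0, with 305 at an unadjusted p under 0.05. The log2 fold change was above 0 for 7 of the 8 members (for 5 with total counts as library size, halved counts or a minimum of 50 counts, and for 4 without Ctrl 2 or without KO 1), against 49.3% of all windows, with a range of -0.27 to 0.25. The median of the members was 0.15, beside -0.0058 over all windows. Nfatc1 and Nfatc2 were among the 97 windows of 800 CPM or more. Over all windows, the median log2 fold change was -0.063 for 3966 windows of 50 to 100 CPM, 0.13 for 1665 windows of 200 to 400 CPM and 0.23 for those of 800 CPM or more. The KO libraries were also the ones with the larger sum over Treg markers, and the part of this in the result was not tested. With an offset fitted to abundance, 3 of the 8 members were above 0 and their median was -0.0030.

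**Figure D2:**
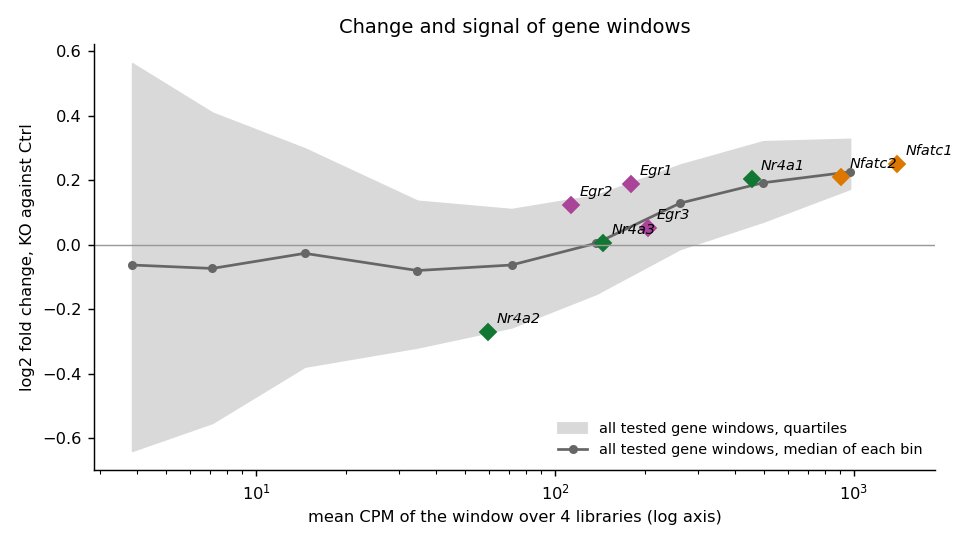
The y axis is the log2 fold change of KO against Ctrl and the x axis the mean CPM of the window on a log axis. The grey line joins the medians of all 16027 tested gene windows in 9 bins of CPM and the band spans their quartiles, and the diamonds are the members (green Nr4a, purple Egr, orange Nfat). The line runs from -0.063 in the weakest bin to 0.23 in the strongest, and Nr4a1, Nfatc1 and Nfatc2 lie close to it.

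Nr4a1 (ENSMUSG00000023034.7, chr15:101254269-101274795) encodes the orphan receptor Nur77 and carried the most signal of its family. Its window had 390.4 CPM for Ctrl 1, 453 CPM for Ctrl 2, 439 CPM for KO 1 and 534 CPM for KO 2. The KO and Ctrl values overlapped, since KO 1 lay below Ctrl 2. The log2 fold change was 0.20 ± 0.22 (SE), and with 1 library left out it ranged from 0.024 to 0.32. The mark was spread over 20 peaks that covered 50.5% of the window, and 18.2% of the CPM lay in 4 peaks nearer to another gene, such as Atg101. Of the peaks nearest to Nr4a1, the 4 strongest lay upstream (chr15:101243434-101248670, 5237 bp), in the gene behind the outer start site (chr15:101255718-101259202), over the inner start site whose promoter is printed above (chr15:101265724-101269037) and over the outer start site (chr15:101251723-101255424). The upstream peak was the strongest, with 76.5 and 69.0 CPM in Ctrl and 78.2 and 82.7 CPM in KO, so that both KO libraries lay just above both Ctrl libraries (log2 fold change 0.15 ± 0.29). The peak behind the outer start site had 69.2 and 72.0 CPM in Ctrl, and 66.7 and 85.3 CPM in KO. The peak of the inner start site had 61.5 and 57.1 CPM in Ctrl, and 59.2 and 83.6 CPM in KO. The peak with the smallest p was a weak intronic one (chr15:101259884-101260578), with 12 counts in each Ctrl library against 19 and 44 in KO (log2 fold change 1.0 ± 0.63).

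Nr4a2 (ENSMUSG00000026826.13, chr2:57106830-57124003), which encodes Nurr1, had the least signal and the largest spread between replicates. Its window held 95.01 CPM for Ctrl 1, 35.1 CPM for Ctrl 2, 75.6 CPM for KO 1 and 32.1 CPM for KO 2. Both replicate 1 libraries were thus higher than both replicate 2 libraries, with 2.96-fold between the extremes, and the groups overlapped fully. The log2 fold change of -0.27 ± 0.50 turned to 0.60 without Ctrl 1 and to 0.21 without KO 2. Its 3 peaks covered 7.25% of the window, and all of its counts lay in peaks whose nearest edge was within 3 kb of a start site. The peak chr2:57114268-57117387, over an inner start site and not over the 5′ end of the span, held 84.2% of the signal. It had 178 and 94 counts in Ctrl 1 and Ctrl 2, and 169 and 120 in KO 1 and KO 2, a log2 fold change of -0.24 ± 0.31. At the 5′ end a peak of 333 bp (chr2:57123536-57123868) had 12, 11, 14 and 5 counts in the same order.

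Nr4a3 (ENSMUSG00000028341.9, chr4:48045153-48086447), encoding Nor1, was marked mostly at its promoter. The window had 167 CPM for Ctrl 1, 121 CPM for Ctrl 2, 145 CPM for KO 1 and 143 CPM for KO 2. The KO libraries lay between the Ctrl libraries, and the log2 fold change was 0.0049 ± 0.25, which fell to -0.21 without Ctrl 2 and rose to 0.25 without Ctrl 1. A single peak over the start site (chr4:48041659-48047501, 5843 bp), which contains the promoter printed above, held 83.1% of the signal of the window. This peak was among the widest 0.683% of all peaks, and its level was 145 and 96.4 CPM in Ctrl, and 120.0 and 118 CPM in KO (log2 fold change -0.020 ± 0.27). The weak peak with the smallest p (chr4:48049052-48049404) had 5 and 7 counts in Ctrl against 14 and 22 in KO, a log2 fold change of 1.26 ± 0.89.

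**Figure D3:**
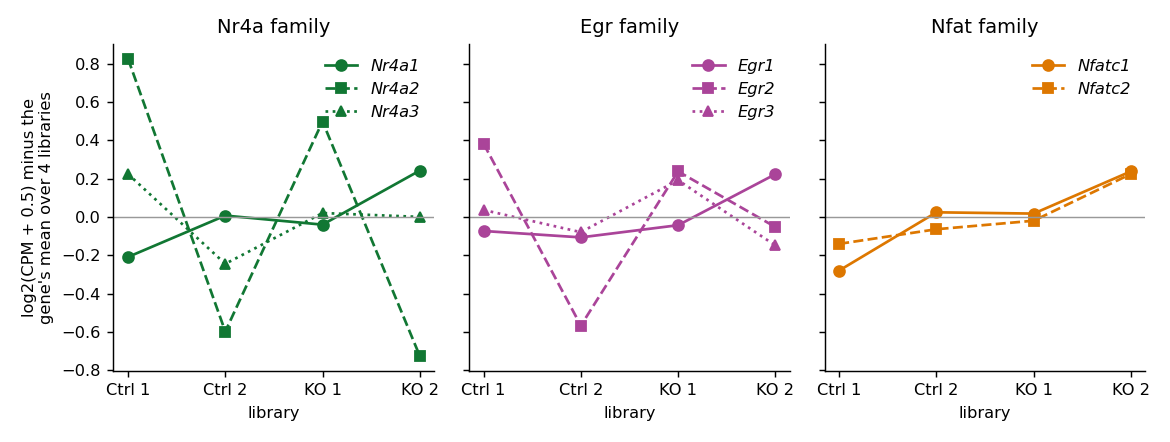
Each panel shows a family, with log2(CPM + 0.5) of a member window minus the mean of that gene over the 4 libraries on the y axis, and the libraries on the x axis. Lines join the points of a gene and imply no order of the libraries. Nr4a2 and Egr2 are high in Ctrl 1 and KO 1 and low in Ctrl 2, while Nfatc1, Nfatc2 and Nr4a1 are lowest in Ctrl 1 and highest in KO 2.

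Egr1 (ENSMUSG00000038418.7, chr18:34859823-34864984), a zinc finger factor and classical immediate early gene, had 169.7 CPM for Ctrl 1, 166 CPM for Ctrl 2, 173 CPM for KO 1 and 208 CPM for KO 2. Both KO libraries exceeded both Ctrl libraries, KO 1 by a small margin, and the log2 fold change was 0.19 ± 0.22. Without KO 2 it fell to 0.016. The strongest peak of the window was not the promoter but a region upstream (chr18:34853358-34857529, 4172 bp), with 70.1 and 95.5 CPM in Ctrl, and 91.3 and 114 CPM in KO (log2 fold change 0.30 ± 0.28). The promoter peak (chr18:34859776-34861957) had 60.2 and 48.2 CPM in Ctrl, and 47.7 and 58.5 CPM in KO, a log2 fold change of -0.022 ± 0.30. Both peaks lay within 3 kb of the start site by their nearest edge. Peaks that met this limit, counted whole, held 89.1% to 91.2% of the counts of the window. The upstream peak extended beyond it, with its nearest edge 2294 bp and its centre 4.38 kb from the start site. The peak with the smallest p, chr18:34850077-34850518, had 6 and 3 counts in Ctrl against 13 and 22 in KO (log2 fold change 1.54 ± 0.97).

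Egr2 (ENSMUSG00000037868.15, chr10:67535475-67542188), a restraint on T cell activation, had 143 CPM for Ctrl 1, 73.8 CPM for Ctrl 2, 129 CPM for KO 1 and 106 CPM for KO 2. The KO values lay between the Ctrl values, and the log2 fold change of 0.12 ± 0.32 turned to -0.28 without Ctrl 2 and to -0.051 without KO 1. The window is shared: 43.9% of its signal lay in 2 downstream peaks nearer to Ado, and with peaks nearest to Egr2 alone the log2 fold change was 0.0080. The main Egr2 peak (chr10:67536060-67538134) covered the inner start sites with the CArG box shown above, and had 139 and 84 counts in Ctrl 1 and Ctrl 2, and 117 and 141 in KO 1 and KO 2. Scaled to CPM, Ctrl 1 was the highest with 62.9 and Ctrl 2 the lowest of the 4 (log2 fold change -0.17 ± 0.32). The peak at the outer 5′ end (chr10:67535119-67535625) had 15 and 16 counts in Ctrl, then 20 counts for KO 1 and 0 for KO 2. A peak behind the promoter (chr10:67539557-67539981) had the smallest p, with 10 and 3 counts in Ctrl against 9 and 36 in KO, which rests on KO 2 (log2 fold change 1.25 ± 0.81).

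Egr3 (ENSMUSG00000033730.4, chr14:70077203-70082614), which overlaps with Egr2 in function, had 209 CPM for Ctrl 1, 193 CPM for Ctrl 2, 233 CPM for KO 1 and 184 CPM for KO 2. The Ctrl values lay between the KO values, and the log2 fold change was 0.051 ± 0.23, which turned to -0.15 without KO 1, and to just under 0 without Ctrl 2 and under 4 other scalings or filters given in the closing section. Only 13.4% to 24.96% of its counts lay in peaks whose nearest edge was within 3 kb of its start site. The promoter peak itself (chr14:70076895-70078096) was weak, with 19 and 12 counts in Ctrl against 34 and 20 in KO (log2 fold change 0.53 ± 0.60). The strongest peak lay at the far upstream edge of the window (chr14:70054424-70058168, 3745 bp) and was even across libraries, with 67.9 and 66.1 CPM in Ctrl, and 71.5 and 66.6 CPM in KO. Its centre, at -20.9 kb from the 5′ end, lay outside the window, but the peak was counted whole and held 33.2% of the signal. Its nearest start site was that of Egr3, and Pebp4 also overlapped the window. The peak chr14:70064488-70066700, also upstream, had the smallest p, with 23.98 and 26.5 CPM in Ctrl, and 36.9 and 27.8 CPM in KO (log2 fold change 0.35 ± 0.35). In the gene span alone, without the 20 kb on either side, the log2 fold change of Egr3 was 0.75, on the few counts of the weak peaks there. Of the 21 peaks in the window, 10 were nearer to Bin3, with 24.3% of the signal.

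Nfatc1 (ENSMUSG00000033016.16, chr18:80606205-80713071), whose product is induced by its own activity in stimulated T cells, had the strongest window of the 8. It held 1137 CPM for Ctrl 1, 1404 CPM for Ctrl 2, 1398 CPM for KO 1 and 1628 CPM for KO 2. Ctrl 2 and KO 1 were nearly equal, Ctrl 1 was the lowest and KO 2 the highest. The log2 fold change was 0.25 ± 0.20, between 0.099 and 0.42 with 1 library left out, and -0.046 with the offset on abundance. The mark covered 63.9% of a window of 147 kb in 40 peaks. A single domain of 19482 bp (chr18:80695655-80715136) ran from upstream of the outer start site into the gene and was number 20 by width among all 124158 peaks and number 45 by CPM. Its level was 247 and 340.2 CPM in Ctrl, and 334 and 441 CPM in KO, so that KO 1 lay just below Ctrl 2. For this domain the log2 fold change of 0.40 ± 0.24 ran from 0.15 without KO 2 to 0.66 without Ctrl 2, and was 0.076 with the offset on abundance. A second strong peak (chr18:80606162-80613125) lay at the 3′ end of the gene and was chosen here for its level, with 166 and 171 CPM in Ctrl, and 213 and 199.8 CPM in KO. The smallest p belonged to a peak beyond the 3′ end (chr18:80600255-80601277), where both KO libraries lay below both Ctrl libraries, with 10.4 and 12.5 CPM in Ctrl, and 3.73 and 8.15 CPM in KO (log2 fold change -0.91 ± 0.55).

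Nfatc2 (ENSMUSG00000027544.16, chr2:168476410-168601657), the form of NFAT present in resting T cells, had 817 CPM for Ctrl 1, 861 CPM for Ctrl 2, 888 CPM for KO 1 and 1052 CPM for KO 2. Both KO libraries were above both Ctrl libraries, KO 1 by a small margin, as they were for 11.9% of all windows, with both KO libraries below both Ctrl libraries for 16.8%. The log2 fold change was 0.21 ± 0.19, from 0.050 to 0.31 with 1 library left out, and -0.053 with the offset on abundance. Of the 97 windows of 800 CPM or more, to which Nfatc2 belongs, 99.0% were above 0, with a median of 0.23. How many of these had both KO libraries above both Ctrl libraries was not counted. The 49 peaks of Nfatc2 covered 43.4% of the window. The strongest was a domain of 13202 bp in the gene (chr2:168573502-168586703), downstream of the inner start site, and number 93 by width of all peaks. It had 189 and 202 CPM in Ctrl, and 269 and 301 CPM in KO, with both KO libraries clear of both Ctrl libraries. Its log2 fold change of 0.54 ± 0.25 had the smallest p among the 121 member peaks tested, and the value was 0.43 to 0.60 with 1 library left out and 0.25 with the offset on abundance. The adjacent peak over the inner start site (chr2:168587041-168592112), which contains the promoter printed above, had 86.4 and 95.8 CPM in Ctrl, and 112 and 120.5 CPM in KO (log2 fold change 0.35). At the outer 5′ end of the span, a peak of 355 bp (chr2:168601167-168601521) had 3 and 6 counts in Ctrl against 11 and 5 in KO, too few to be tested.

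**Figure D4:**
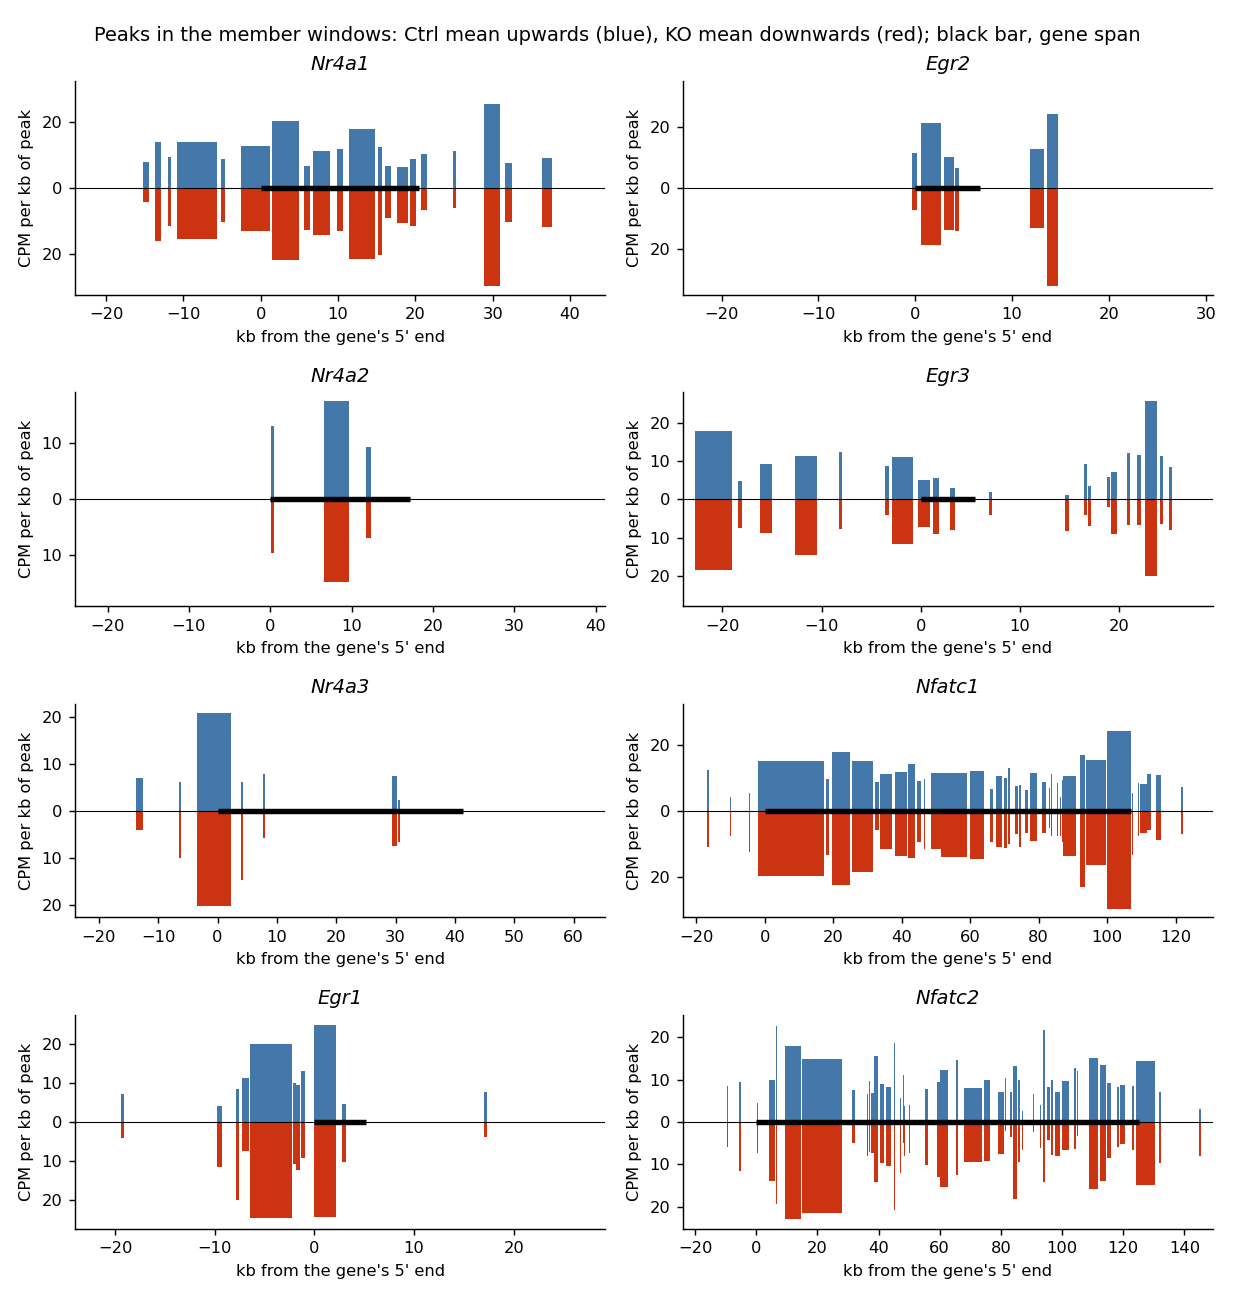
Each panel is a member window, with the distance from the 5′ end of the gene in kb on the x axis and the level of each peak in CPM per kb of peak on the y axis. The width of a bar is the width of the peak, the mean of the Ctrl libraries points up and that of the KO libraries down, and the black bar is the gene span. Nr4a3 has a single promoter peak, and Nfatc1 and Nfatc2 have domains of 19482 bp and 13202 bp near their start sites. The upstream peak of Egr1 is its strongest in CPM, but per kb it is lower than the promoter peak (22.2 against 24.6 CPM per kb, mean of the 4 libraries).

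Of the 157 peaks of the members, 121 passed the filter, and 0 were called by edgeR or DESeq2. Over all 74550 peaks tested, 0.00134% were called by edgeR. At an unadjusted p under 0.05, 1 member peak was higher and 0 were lower by edgeR, while over all peaks 1.45% were higher and 2.79% lower, and DESeq2 had 1 member peak at that limit. Both KO libraries exceeded both Ctrl libraries in 27 of the 121 member peaks and lay below both in 11, and over all peaks the shares were 16.9% and 16.4%. The log2 fold change was above 0 in 79 of the 121 and below in 42, against 49.2% above over all peaks, with a median of 0.11 beside -0.012. Of the 121 peaks, 69 came from the Nfat windows, and peaks of the same window are not independent. Over all windows, the share above 0 rose from 40.5% at 50 to 100 CPM to 99.0% at 800 CPM or more. The member peaks were not compared with other peaks of like signal. By family the counts above and below 0 were 19 and 8 for Nr4a, 16 and 9 for Egr and 44 and 25 for Nfat, and all 3 tested Nr4a2 peaks were below 0. Wide peaks were frequent in the Nfat windows, where 10 of 89 peaks reached 5 kb, beside 1.02% of all peaks and 2 of 30 and 0 of 38 in the Nr4a and Egr windows. A change in the mark of each cell and a change in the share of cells that carry it cannot be told apart in such bulk libraries.

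Promoter peaks were those whose nearest edge lay within 3 kb of a start site of the gene, and each was counted whole. The share of counts in them differed among the members. Whether this share differed between genotypes could not be decided with 2 libraries against 2. Over the 8 genes together it was 33.2% and 29.9% in Ctrl (31.5% ± 2.3, SD, n = 2), and 32.1% and 31.8% in KO (31.9% ± 0.23, SD, n = 2), a difference of 0.401 percentage points (exact permutation test, two-sided, p = 1.0). Exact Clopper-Pearson intervals at the 95% level, which cover counting error only, ran from 32.1% to 34.3% in Ctrl 1 and from 29.1% to 30.8% in Ctrl 2. With 2 libraries against 2 the smallest p of this test is 0.333, so that it cannot reach 0.05. The share was 100% for Nr4a2, 79.8% to 86.8% for Nr4a3, 41.8% to 47.5% for Nr4a1, 49.4% to 61.4% for Egr2, 21.7% to 27.1% for Nfatc1 and 10.7% to 13.1% for Nfatc2. The largest difference between genotypes was that of Egr2, which was 57.1% ± 6.1 in Ctrl and 53.5% ± 5.8 in KO (SD, n = 2, exact permutation test, two-sided, p = 0.667). For Nfatc2 both KO libraries (13.1% and 11.6%) lay above both Ctrl libraries (10.7% and 11.3%), with the smallest p the same test can give, 0.333.

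**Figure D5:**
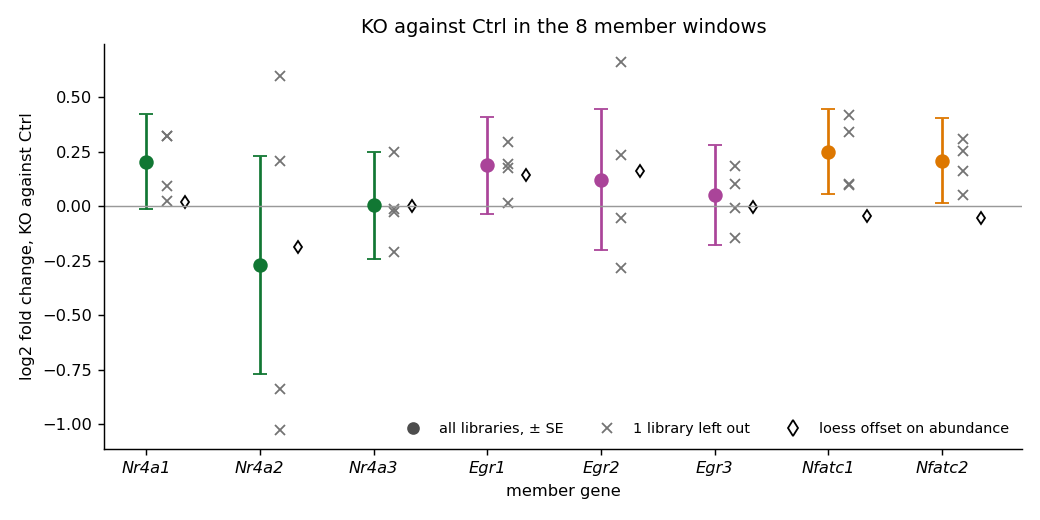
Filled circles are the log2 fold changes of KO against Ctrl for the 8 member windows with bars of ± 1 SE, crosses are the values with 1 library left out, and open diamonds those with the offset on abundance. Nr4a2 runs from -1.03 to 0.60 over the left-out libraries and Egr2 from -0.28 to 0.66, while the Nfatc1 and Nfatc2 values are above 0 in all of these and below 0 with the offset.

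The other genes of the pathway were described by 3 lists. Of the 25 genes of the calcineurin and NFAT pathway, all were tested, 0 were called by edgeR or DESeq2, and 14 were above and 11 below 0, with a median log2 fold change of 0.019, which turned to -0.037 with total counts as library size and to -0.060 with the offset on abundance. Plcg1, the phospholipase that starts calcium release, had the highest level per kb, with 525 and 573 CPM in Ctrl, and 564 and 662 CPM in KO (log2 fold change 0.16 ± 0.20). The single gene with an unadjusted p under 0.05 by edgeR was Homer2, a scaffold protein that competes with calcineurin for NFAT, with 21.7 and 31.0 CPM in Ctrl, and 11.9 and 7.91 CPM in KO (log2 fold change -1.42 ± 0.48). Cabin1, a calcineurin inhibitor, had 349 and 401 CPM in Ctrl, and 302 and 295 CPM in KO (log2 fold change -0.33 ± 0.21).

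Of the 30 genes of the Ras, ERK and SRF input, 29 were annotated and tested, 0 were called by edgeR and none had an unadjusted p under 0.05 by edgeR or DESeq2. Their log2 fold change was above 0 in 14 and below in 15, with a median of -0.011, which turned to 0.0037 with the offset on abundance and to 0.024 with no count minimum. Both KO libraries exceeded both Ctrl libraries in 6 of them and lay below both in 6, beside 11.9% and 16.8% of all windows. Dusp2, a phosphatase that dephosphorylates MAP kinases, had the highest level per kb, with 404 and 412 CPM in Ctrl, and 479 and 475 CPM in KO (log2 fold change 0.23 ± 0.20). Dusp5, a nuclear phosphatase of ERK, had the smallest p, with 233 and 255 CPM in Ctrl, and 321 and 357 CPM in KO (log2 fold change 0.48 ± 0.21). Elk1, a partner of SRF, had 42.5 and 41.4 CPM in Ctrl, and 36.1 and 22.0 CPM in KO (log2 fold change -0.54 ± 0.35).

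The 30 response genes of TCR activation were all tested, 0 were called by edgeR or DESeq2 and none had an unadjusted p under 0.05 by either. Their log2 fold change was above 0 in 25 and below in 5, with a median of 0.17, and both KO libraries exceeded both Ctrl libraries in 10 of the 30 and lay below both in 0, beside 11.9% and 16.8% of all windows. With the offset on abundance 23 of the 30 were above 0 and the median was 0.11, beside 0.012 over all windows. Tnfrsf4, the costimulatory receptor OX40, had the highest level per kb, with 732 and 827 CPM in Ctrl, and 929 and 1078 CPM in KO (log2 fold change 0.36 ± 0.20). Irf4, a transcription factor of effector Treg cells, had 294 and 247 CPM in Ctrl, and 385 and 352 CPM in KO (log2 fold change 0.45 ± 0.22). Zfp36, an RNA-binding protein that destabilizes cytokine transcripts, had 403 and 427 CPM in Ctrl, and 507 and 602 CPM in KO (log2 fold change 0.42 ± 0.21).

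The windows most like each family in their pattern over the 4 libraries were found by the Euclidean distance between log2(CPM + 0.5) values centred on their mean, among 12933 other windows of at least 20 CPM. Fam129a (distance 0.017) and Rab28 (0.037) were nearest to the Nr4a mean, Deup1 (0.013) and Hist1h2be (0.014) to the Egr mean, and Lrrc51 (0.015) and Ppp1r16b (0.016) to the Nfat mean. A family mean need not be the pattern of each member. The centred values of Ctrl 1 and KO 2 were 0.83 and -0.73 for Nr4a2, but -0.21 and 0.24 for Nr4a1. Such patterns were common, since 500 windows lay within a distance of 0.2 of the Nr4a mean, 715 of the Egr mean and 1186 of the Nfat mean. Ppp1r16b had 931 and 1048 CPM in Ctrl, and 1070 and 1248 CPM in KO. Fam129a had 527 and 353 CPM in Ctrl, and 487 and 385 CPM in KO, and was thus higher in both replicate 1 libraries, as Nr4a2 was.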

How the data were processed

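H3K27ac CUT&Tag counts of 4 libraries, 2 Ctrl and 2 KO, were analysed. Per the study's methods, the authors aligned reads to mm10 with Bowtie2, kept uniquely mapped reads, removed duplicates, called peaks with MACS2 at p = 0.01 against IgG and merged them with bedtools; tool versions are not given in the sources used here. The deposited values are raw read counts per merged peak, without normalization. The peaks were called on the same libraries that were compared, and if both mates of a pair were counted, the counts hold fewer independent fragments than their size implies. No other per-sample column was present.

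Peaks were summed over each coding gene of GENCODE M21 (GRCm38, the assembly of mm10) and 20 kb each side. Windows and peaks that reached 10 counts in 2 or more libraries entered a quasi-likelihood fit in edgeR (version 4.0.16, R 4.3.3) with TMM factors of the peak table and Benjamini-Hochberg adjustment over all windows or all peaks. The window fit had 2 residual and 7.38 prior degrees of freedom. CPM are counts divided by the TMM-scaled total in tested peaks. The SE is the absolute log2 fold change divided by the square root of F. Libraries are pools of different mice. The p-values set the difference between the groups against a variance estimated from the 2 pools of each group. Through the prior, this estimate also draws on all other windows or peaks. Code was tested on simulated counts.

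Named were all 8 members. Of each member's peaks, those at the 5′ end of the span, with the highest CPM and with the smallest p were named. Of each list, the gene with the highest CPM per kb and the 2 with the smallest p were named, with the 2 windows nearest to each family's pattern. Further peaks were named after their values were seen: the inner start site peaks of Nr4a1 and Nfatc2, the Nr4a1 peak behind the outer start site and the 3′ peak of Nfatc1. Members, lists and tests were chosen with earlier results of these data known. DESeq2 1.42.0 and the other alternatives are given in the closing section. Coordinates are 1-based on mm10.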

Additional observations from a re-analysis of the deposited data

How the results depend on the processing

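Over 16 alternatives for the windows and 13 for the peaks, 0 of the 8 member windows and 0 of their peaks were called at an adjusted p under 0.05, with the exception of the replicate block. With the replicate number as a block, edgeR called 2 windows (Nfatc1, log2 fold change 0.25, adjusted p = 0.00145; Nfatc2, 0.21, adjusted p = 0.0335) and 2 peaks, the domains of Nfatc1 (0.40, adjusted p = 0.0440) and Nfatc2 (0.54, adjusted p = 0.00471), and the promoter peak of Nr4a3 moved to 0.011. Over all windows the replicate block raised the calls from 0 to 1622, 824 higher and 798 lower, and over all peaks from 1 to 152 higher and 59 lower, with 1 residual degree of freedom. The deviations of Ctrl 1 and KO 1 from their group means had a correlation of 0.536 over 16027 windows, which are not independent. The paper describes littermate mice, but the labels do not say whether equal numbers mark a shared litter or day. Whether the libraries are paired is thus not known, and the reported fit without a block would ignore such a pairing.

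The median log2 fold change of the members, 0.15, was 0.099 with total counts as library size, 0.089 with halved counts, 0.039 with a minimum of 50 counts, 0.052 with 50 kb on each side, -0.0030 with the loess offset on abundance, and 0.077 to 0.18 with 1 library left out. The minimum of 50 counts moved the median of all windows to -0.12, so the members lay 0.158 above it, beside 0.161 in the reported fit. Of the windows, Nr4a3 and Egr3 turned to -0.051 and -0.0042 with total counts, -0.00079 and -0.0052 with the loess offset, -0.11 and -0.058 with the minimum of 50 counts, and -0.045 and -0.017 with halved counts. The loess offset gave -0.046 for Nfatc1 and -0.053 for Nfatc2. Of the named peaks, the strongest of Egr3 turned to -0.012 with total counts, -0.12 with the loess offset, -0.071 with the minimum of 50 counts and -0.020 with halved counts. The 5′ end peak of Nr4a1 gave -0.077 with the loess offset and -0.054 with the minimum of 50 counts, its strongest peak gave -0.036 with the loess offset, and with no count minimum the promoter peaks of Nr4a3 and Egr1 gave 0.017 and 0.024. The causes were not tested.

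With 1 library left out, where the lone library of a group is assumed to vary like the others, the windows of Nr4a2 (-1.03 to 0.60), Nr4a3 (-0.21 to 0.25), Egr2 (-0.28 to 0.66) and Egr3 (-0.15 to 0.18) took both signs. The same held for the 5′ end peaks of Nr4a1 (-0.49 to 0.43), Nr4a2 (-1.83 to 0.26), Nr4a3 (-0.29 to 0.29), Egr1 (-0.21 to 0.13), Egr2 (-7.24 to 0.35, with 0 counts in KO 2, so the lower value is no bound) and Egr3 (-0.33 to 1.24), and for the strongest peaks of Nr4a2 (-0.92 to 0.69), Egr2 (-0.71 to 0.62) and Egr3 (-0.024 to 0.065). The difference in promoter share ran from -1.25 to 2.06 percentage points, and was 0.123 with a limit of 1 kb. With 2 libraries per group and no block, differences of the size seen here could not be separated from the spread between replicates. The fit with the replicate block called the windows and domains of Nfatc1 and Nfatc2 given above, among 1622 windows called in all, on 1 residual degree of freedom. The block was not combined with the offset on abundance. Under that offset alone the Nfatc1 and Nfatc2 windows were at -0.046 and -0.053, and their domains at 0.076 and 0.25.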
